A study of Homo sapiens with 6 samples.

Results

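Lysosomes break down proteins, glycans, lipids and spent organelles with acid hydrolases that work only inside an acidified membrane. A proton pump, the V-ATPase, sets that acidity: its V1 sector in the cytosol splits ATP and turns a rotor in the V0 sector, which carries protons through the membrane. Transcription factors of the MiT/TFE family, TFEB and TFE3 among them, switch on many lysosomal genes through the CLEAR element, whose core is CACGTG, and endothelial cells use lysosomes to turn over endocytosed receptors and matrix. The genes described here were 43 listed genes of lysosomal hydrolases, membrane proteins and the proton pump, taken by symbol from a count table of 29436 symbols, and all 43 were found in it.

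They were measured by RNA-seq of hemogenic endothelial cells, the endothelial cells that give rise to blood, differentiated on AGM-S3 stroma from the human embryonic stem cell line H1, which is long established. The ALA group was differentiated in medium with alpha lipoic acid (100 µg/ml), and the Ctrl group received none. Both groups were sorted on day 8 as CD34+ CD43- KDR+ CD144+ cells, in aliquots of 1000 cells, with 3 libraries each. All cells came from 1 line, and the labels do not say whether the libraries of a group came from separate cultures, so p values reflect only library-to-library spread, which could be technical.

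Total counts were 31404734 to 41351951 in ALA libraries and 30041494 to 32034433 in Ctrl libraries. In 4 libraries (all of ALA and Ctrl replicate 1) even numbers made up at least 99.13% of the nonzero counts, while Ctrl replicates 2 and 3 had 52.01% and 51.97%, so calls were also made within those 4 libraries. Endothelial markers were present in every library. PECAM1, CDH5, KDR, CD34 and 6 others summed to 9993 to 10311 CPM in ALA and 11564 to 11639 CPM in Ctrl libraries (5 of 10 lower, 2 higher). Markers of cells outside the sort moved with the groups: endoderm and hepatic markers summed to 145 to 218 CPM in ALA against 26.2 to 38.6 CPM in Ctrl libraries (8 of 9 tested higher), and epithelial markers to 463 to 533 CPM in ALA against 298 to 329 CPM in Ctrl libraries (6 of 8 higher, 1 lower). Megakaryocytic markers summed to 44.9 to 54.6 CPM in ALA and 16 to 17 CPM in Ctrl libraries (4 of 6 tested higher, 1 lower, PPBP at 0), and erythroid markers to at most 1.46 CPM in any library. Of the erythroid list, HBE1 and HBG2 share 0.900 and 0.573 of their exonic length with other genes on their strand. The part of this in the low erythroid sum was not tested. Most of the megakaryocytic sum came from SELP (21.3 CPM in ALA, 5.25 CPM in Ctrl) and RAB27B (20.9 CPM in ALA, 7.39 CPM in Ctrl), so its rise was mainly theirs. Whether these transcripts came from megakaryocytic or from endothelial cells was not tested. ITGB3 of the megakaryocytic list fell 2.65-fold at a low level (0.906 CPM in ALA, 2.39 CPM in Ctrl). It shares 0.516 of its exonic length with another gene on its strand. Mesenchymal markers summed to 1500 to 2050 CPM in ALA and 1966 to 2599 CPM in Ctrl libraries (6 of 12 lower, 1 higher). Of macrophage and myeloid markers, whose cells are rich in lysosomes, PTPRC, AIF1, ITGAM, SPI1, CYBB and MPO had no count in any library, and the list of 14 summed to 26.9 to 29 CPM in ALA and 22.7 to 24.6 CPM in Ctrl libraries (1 of 5 tested higher, 1 lower). Most of the myeloid sum came from MRC1 (20.1 CPM in ALA, 9.11 CPM in Ctrl) and FCER1G (5.26 CPM in ALA, 11.5 CPM in Ctrl). Mitochondrially encoded transcripts took 4.39% to 5.02% of counts in ALA and 2.45% to 2.82% in Ctrl libraries. The part of these shifts in the lysosomal differences was not tested, and in these bulk libraries fewer cells of a type and less RNA per cell cannot be told apart.

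The CLEAR core is shown first, since it is the known sequence link between lysosomal genes. RefSeq promoter windows on GRCh38.p14, reaching from 250 bases before to 50 bases after an annotated start, were matched by symbol for 29 of the 43 genes in 40 windows. The windows of 4 genes are printed 5′ to 3′ on the gene's strand, with each CACGTG in capitals. They were chosen because each holds at least 2 copies and because they span a membrane protein, a calcium channel, a peptidase complex partner and a glycosidase, of which LAMP1, MCOLN1 and CTSA were lower in ALA cells and GAA was not called.
LAMP1, chr13:113296989-113297288, plus strand: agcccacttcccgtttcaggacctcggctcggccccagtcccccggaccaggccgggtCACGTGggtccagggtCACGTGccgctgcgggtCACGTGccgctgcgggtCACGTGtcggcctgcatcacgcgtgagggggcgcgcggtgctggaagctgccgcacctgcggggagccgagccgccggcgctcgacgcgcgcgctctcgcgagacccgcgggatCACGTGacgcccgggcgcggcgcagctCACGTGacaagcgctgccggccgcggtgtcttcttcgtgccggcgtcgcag
MCOLN1, chr19:7522374-7522673, plus strand: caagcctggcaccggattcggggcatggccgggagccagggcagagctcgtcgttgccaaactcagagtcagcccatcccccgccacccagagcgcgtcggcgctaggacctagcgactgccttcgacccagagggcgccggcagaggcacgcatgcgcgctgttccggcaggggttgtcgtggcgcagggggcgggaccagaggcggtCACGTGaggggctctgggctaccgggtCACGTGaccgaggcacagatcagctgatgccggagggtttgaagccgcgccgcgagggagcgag
CTSA, chr20:45891085-45891384, plus strand: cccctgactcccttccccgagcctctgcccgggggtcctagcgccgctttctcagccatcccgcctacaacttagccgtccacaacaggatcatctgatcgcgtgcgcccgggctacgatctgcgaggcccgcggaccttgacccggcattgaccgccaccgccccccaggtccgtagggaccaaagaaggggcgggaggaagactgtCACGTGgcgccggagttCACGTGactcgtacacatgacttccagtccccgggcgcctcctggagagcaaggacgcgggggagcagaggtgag
GAA, chr17:80101331-80101630, plus strand: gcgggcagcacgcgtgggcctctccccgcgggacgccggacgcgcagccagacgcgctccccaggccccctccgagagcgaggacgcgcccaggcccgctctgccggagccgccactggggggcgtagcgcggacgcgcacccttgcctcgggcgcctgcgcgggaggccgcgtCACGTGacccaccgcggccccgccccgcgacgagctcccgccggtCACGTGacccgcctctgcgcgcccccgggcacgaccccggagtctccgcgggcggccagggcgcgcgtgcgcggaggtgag
LAMP1 carries 6 copies, 4 of them in a run upstream and the others close to the start, while MCOLN1, CTSA and GAA carry 2 each, all near the start. CACGTG, which reads the same on both strands, occurred in 27.5% of the 40 windows of lysosomal genes and in 7.26% of all 35116 promoter windows of that length. The longer TCACGTG, which contains it and was searched on both strands, occurred in 25.0% of the lysosomal windows and in 3.71% of all windows.

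Lysosomal transcripts were lower in ALA cells more often than transcripts at large, by small amounts. Of the 43 genes 42 passed the filter on low counts, and of these 20 fell and 5 rose at an adjusted p under 0.05 (edgeR quasi-likelihood test, Benjamini-Hochberg over all genes tested), while 17 did not pass. Among all 13780 tested genes 47.4% were called, 23.3% as lower and 24.2% as higher, so 47.6% of the lysosomal genes against 23.3% fell, and 11.9% against 24.2% rose. The median log2 fold change, ALA over Ctrl, was -0.18 over the 42 genes and -0.01 over all tested genes. Called lysosomal genes moved by a median of 0.32 on the log2 scale, against 0.59 for all called genes. The sets were not matched for expression level, on which the smallest change that passes depends. Of the 42 genes CTSF alone fell by at least 2-fold and passed the test, as 5.93% of all tested genes did. None of the 42 rose by at least 2-fold and passed the test, against 7.92% of all tested genes. In 21 of the 42 genes every ALA library lay below every Ctrl library, as in 28.8% of all tested genes, and in 6 every ALA library lay above, as in 30.4% of all. These counts are descriptions of a chosen list, with no test of the list as a whole.

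**Figure D1:**
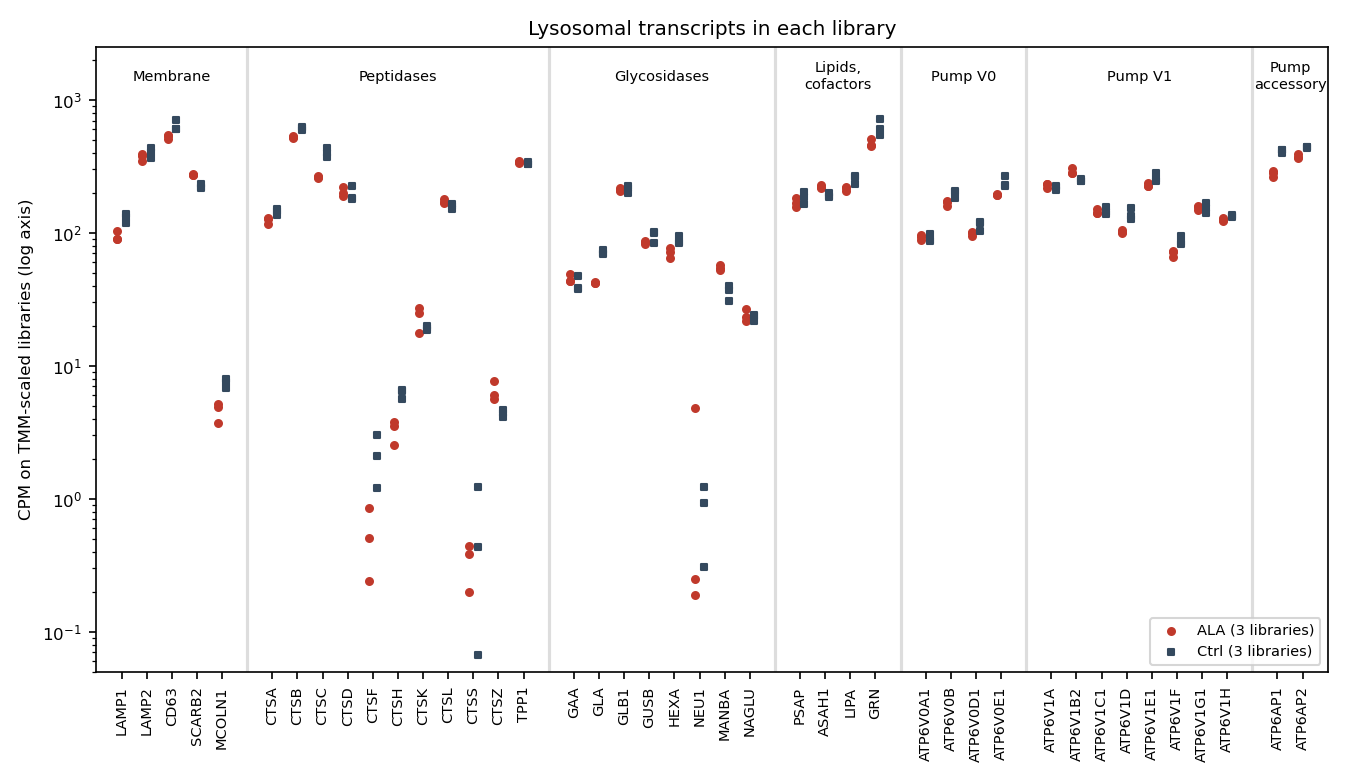
Each point is 1 library, with ALA (red circles) left of Ctrl (dark squares) for each gene, and the vertical axis gives CPM on TMM-scaled libraries on a log scale. Most of the genes lie between 40 and 640 CPM with small gaps between the groups, CTSF, CTSS and NEU1 lie near or below 1 CPM in several libraries, and ATP6V0C, at 0 in all libraries, is not drawn.

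Summed over the 43 genes, lysosomal transcripts made up 7103 ± 129 CPM in ALA and 7987 ± 138 CPM in Ctrl libraries (SD, n = 3 each), and the highest ALA library, at 7223 CPM, lay below the lowest Ctrl library, at 7853 CPM. The proton pump genes summed to 2551 ± 7.31 CPM in ALA and 2880 ± 102 CPM in Ctrl, and the other genes to 4552 ± 137 CPM in ALA and 5107 ± 67.2 CPM in Ctrl. By role the sums did not overlap for peptidases (1665 ± 25.4 CPM in ALA, 1884 ± 31.2 CPM in Ctrl), for the V0 sector (552 ± 13.8 CPM in ALA, 643 ± 39.2 CPM in Ctrl), for lipid enzymes and cofactors (1078 ± 47.3 CPM in ALA, 1250 ± 89.6 CPM in Ctrl) and for the pump's accessory subunits (655 ± 20.2 CPM in ALA, 851 ± 10.1 CPM in Ctrl). They did not overlap either for membrane proteins (1274 ± 44.3 CPM in ALA, 1402 ± 105 CPM in Ctrl). Glycosidases (535 ± 22.2 CPM in ALA, 570 ± 36.9 CPM in Ctrl) and the V1 sector (1345 ± 27.3 CPM in ALA, 1386 ± 65.5 CPM in Ctrl) overlapped. A sum of CPM follows its most abundant genes. In the sum of lipid enzymes and cofactors GRN alone made up 472 ± 34.3 CPM in ALA and 621 ± 92.9 CPM in Ctrl. Whether that sum stays apart without GRN was not tested, and single genes are given next.

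**Figure D2:**
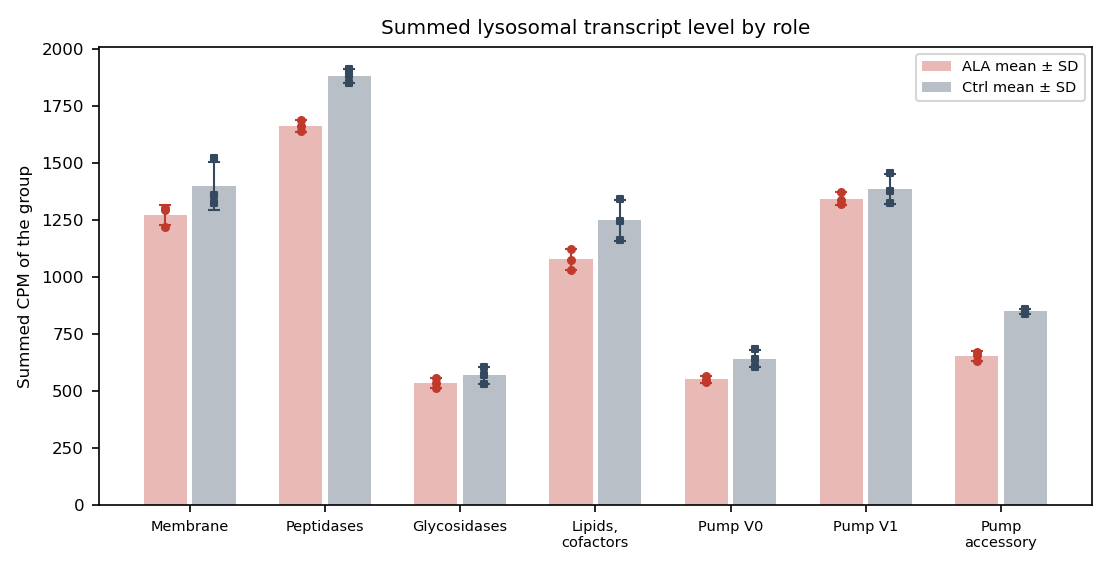
Bars give the mean and error bars the SD of the summed CPM of each role group over 3 libraries, with ALA left of Ctrl and a point for each library. Peptidases and accessory pump subunits stand apart most clearly, and the glycosidases and the V1 sector overlap between the groups.

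Among membrane proteins 3 fell, 1 rose and 1 did not pass. LAMP1 (chromosome 13, 113297241 to 113323672, GRCh38), a heavily glycosylated protein that lines the lysosomal membrane, had 103, 89.2 and 89.5 CPM in ALA replicates 1 to 3 and 131, 139 and 119 CPM in Ctrl replicates 1 to 3. All ALA values of LAMP1 lay below all Ctrl values, a 1.38-fold fall (log2 fold change -0.47 ± 0.08 SE, adjusted p = 0.00112). Its partner LAMP2, which also serves chaperone-mediated autophagy, had 380, 349 and 390 CPM in ALA and 368, 436 and 409 CPM in Ctrl libraries. The LAMP2 groups overlapped and the gene was not called (log2 fold change -0.12 ± 0.07, adjusted p = 0.206), except under a correction of each library for GC content and transcript length (-0.26, adjusted p = 0.0107). CD63, a tetraspanin of late endosomes and Weibel-Palade bodies, had 544, 508 and 532 CPM in ALA and 601, 707 and 604 CPM in Ctrl libraries, 1.21-fold lower (adjusted p = 0.00900, and 0.0533 without ALA replicate 2). SCARB2, or LIMP-2, the receptor that carries glucocerebrosidase to lysosomes, was the exception of this role and rose 1.23-fold (adjusted p = 0.00144). Its ALA libraries held 273, 271 and 277 CPM and its Ctrl libraries 217, 232 and 220 CPM, with no overlap. MCOLN1, the calcium release channel of lysosomes, was scarce, with 4.93, 5.19 and 3.72 CPM in ALA and 6.77, 7.58 and 7.91 CPM in Ctrl libraries. It was 1.61-fold lower (adjusted p = 0.0140) with no overlap, but was not called without ALA replicate 3 (0.0660), without Ctrl replicate 3 (0.0514), in the 4 libraries of even counts (0.116) or under the GC and length correction (0.0699).

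Of 11 cathepsins and other peptidases 5 fell, 1 rose and 5 did not pass. The clearest change was in CTSC (chromosome 11, 88293592 to 88337787), the dipeptidyl peptidase that activates serine proteases of granules. It had 262, 266 and 259 CPM in ALA and 374, 438 and 402 CPM in Ctrl libraries, a 1.54-fold fall (log2 fold change -0.63 ± 0.06, adjusted p = 4.98e-05). CTSB, an abundant cysteine protease, had 537, 522 and 519 CPM in ALA and 618, 626 and 592 CPM in Ctrl libraries, 1.16-fold lower (adjusted p = 0.00466). Both genes were separated in every library. The scarcer CTSH and CTSF fell further. CTSH, an aminopeptidase, had 3.54, 2.53 and 3.77 CPM in ALA and 5.66, 6.58 and 6.52 CPM in Ctrl libraries (1.90-fold lower, adjusted p = 0.00574, and 0.0587 in the 4 libraries of even counts). CTSF, another cysteine cathepsin, had 0.847, 0.506 and 0.242 CPM in ALA and 3.01, 2.10 and 1.20 CPM in Ctrl libraries (3.94-fold lower, adjusted p = 0.0112, and 0.0508 without Ctrl replicate 1). The lowest Ctrl library of CTSF was still above the highest ALA library, but these levels rest on 10 to 98 counts per library.

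Of the remaining peptidases CTSA fell, CTSZ rose and the others did not pass. CTSA, the protective protein that holds beta-galactosidase and neuraminidase in a complex, was 1.16-fold lower (124 ± 6.16 CPM in ALA, 144 ± 8.36 CPM in Ctrl, adjusted p = 0.0221). Genes on the other strand cover 0.285 of its exonic length, and whether reads were counted by strand is not given in the sources used here. It lost its call without ALA replicate 1 (0.0591), 2 (0.103) or 3 (0.0537), without Ctrl replicate 1 (0.0828) and under the GC and length correction (0.288). CTSZ, a carboxypeptidase, rose 1.47-fold at 6.47 ± 1.10 CPM in ALA against 4.40 ± 0.300 CPM in Ctrl libraries (adjusted p = 0.0387), a call lost in 8 of 16 other settings. Among these were the fits without ALA replicate 1 (0.0649) or 2 (0.117), those without Ctrl replicate 1 (0.0685), 2 (0.0605) or 3 (0.0635), and the 4 libraries of even counts (0.123). The aspartic protease CTSD, at 203 ± 15.1 CPM in ALA and 197 ± 25.9 CPM in Ctrl, was not called (log2 fold change 0.04 ± 0.09, adjusted p = 0.717). It was higher under the GC and length correction (0.36, adjusted p = 0.00312), and a neighbouring annotated gene on its strand takes in 0.417 of its exonic length. TPP1, a tripeptidyl peptidase, was nearly level at 342 ± 6.15 CPM in ALA and 335 ± 5.30 CPM in Ctrl libraries, with a log2 fold change of 0.03 ± 0.05.

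CTSL and CTSK, cysteine proteases that can also cut matrix collagen or elastin, and CTSS did not pass. CTSL had 174 ± 6.72 CPM in ALA and 158 ± 7.27 CPM in Ctrl (log2 fold change 0.14, adjusted p = 0.0851), with no overlap. It was called higher by limma voom (0.0488), in the 4 libraries of even counts (0.0380) and under the GC and length correction (0.0115). CTSK had 23.4 ± 5.03 CPM in ALA and 19.3 ± 0.614 CPM in Ctrl (0.28, adjusted p = 0.138), with ALA replicate 2, at 17.7 CPM, below all Ctrl libraries, and it was called higher without that library (0.00892) and by limma voom (0.0445). CTSS, a cathepsin of antigen-presenting cells, was near the limit of detection, with 8, 14 and 16 counts in ALA and 14, 37 and 2 counts in Ctrl libraries.

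Glycosidases, which remove sugars from glycoproteins and glycolipids, went in both directions. GLA (chromosome X, 101397803 to 101408012), the alpha-galactosidase that is deficient in Fabry disease, had the lowest adjusted p of all 42 genes. It had 42.5, 42.3 and 42.2 CPM in ALA and 73.8, 70.0 and 69.6 CPM in Ctrl libraries, a 1.68-fold fall (log2 fold change -0.75 ± 0.06, adjusted p = 1.73e-05). The GLA libraries of each group lay close together and far from the other group. MANBA (chromosome 4, 102630770 to 102760994), beta-mannosidase, moved the other way, with 57.0, 52.8 and 54.9 CPM in ALA and 39.7, 30.8 and 36.9 CPM in Ctrl libraries. This was the largest rise among the called genes, 1.53-fold (log2 fold change 0.61 ± 0.09, adjusted p = 0.000595). HEXA, the alpha subunit of beta-hexosaminidase, had 77.4, 64.5 and 72.0 CPM in ALA and 94.1, 84.2 and 85.9 CPM in Ctrl libraries (1.24-fold lower, adjusted p = 0.0113, and 0.0541 without ALA replicate 2).

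The other 5 glycosidases did not pass. GLB1, beta-galactosidase, had 211 ± 6.23 CPM in ALA and 214 ± 13.2 CPM in Ctrl (log2 fold change -0.02 ± 0.06). GAA, acid alpha-glucosidase, had 45.3 ± 3.44 CPM in ALA and 41.2 ± 5.25 CPM in Ctrl, and was called higher without Ctrl replicate 1 (0.26, adjusted p = 0.0397) and under the GC and length correction (0.34, adjusted p = 0.00208). GUSB, beta-glucuronidase, had 84.9 ± 2.12 CPM in ALA and 95.5 ± 10.1 CPM in Ctrl (adjusted p = 0.108). GUSB was called lower by limma voom (0.00884), without Ctrl replicate 2 (0.00412) and in the 4 libraries of even counts (0.0207), and its Ctrl replicate 2, at 83.9 CPM, lay among the ALA libraries. NAGLU, which acts on heparan sulfate, had 23.9 ± 2.68 CPM in ALA and 23.2 ± 1.17 CPM in Ctrl, and was called higher under that correction (0.33, adjusted p = 0.0110). NEU1, the lysosomal neuraminidase, had 10, 6 and 201 counts in ALA and 10, 28 and 37 counts in Ctrl libraries. ALA replicate 3 alone set its direction: the log2 fold change was 1.12 with it (adjusted p = 0.398) and -1.87 without it (adjusted p = 0.0964).

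Among enzymes and cofactors of lipid breakdown 2 fell, 1 rose and 1 did not pass. GRN, progranulin, a secreted glycoprotein that is cut to granulins in lysosomes, had 511, 448 and 457 CPM in ALA and 722, 540 and 599 CPM in Ctrl libraries. It was 1.32-fold lower (adjusted p = 0.00777), with Ctrl replicate 1 highest, and was not called under the GC and length correction (log2 fold change -0.17 against -0.40, adjusted p = 0.123). LIPA, the acid lipase that frees cholesterol from its esters, had 216, 205 and 221 CPM in ALA and 232, 268 and 262 CPM in Ctrl libraries, 1.19-fold lower (adjusted p = 0.0125). Every ALA library of LIPA lay below the Ctrl libraries, but the call was lost without ALA replicate 2 (0.0667), without Ctrl replicate 3 (0.0543) and in the 4 libraries of even counts (0.200, log2 fold change -0.11 against -0.25). ASAH1, acid ceramidase, had 217, 222 and 231 CPM in ALA and 186, 190 and 199 CPM in Ctrl libraries, 1.17-fold higher (adjusted p = 0.00861, and 0.147 under that correction). PSAP, the precursor of the saposins that present glycolipids to their hydrolases, had 182, 157 and 169 CPM in ALA and 201, 165 and 187 CPM in Ctrl libraries. PSAP overlapped and was not called (adjusted p = 0.247), except as lower without Ctrl replicate 2 (0.0307) and in the 4 libraries of even counts (0.0316).

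**Figure D3:**
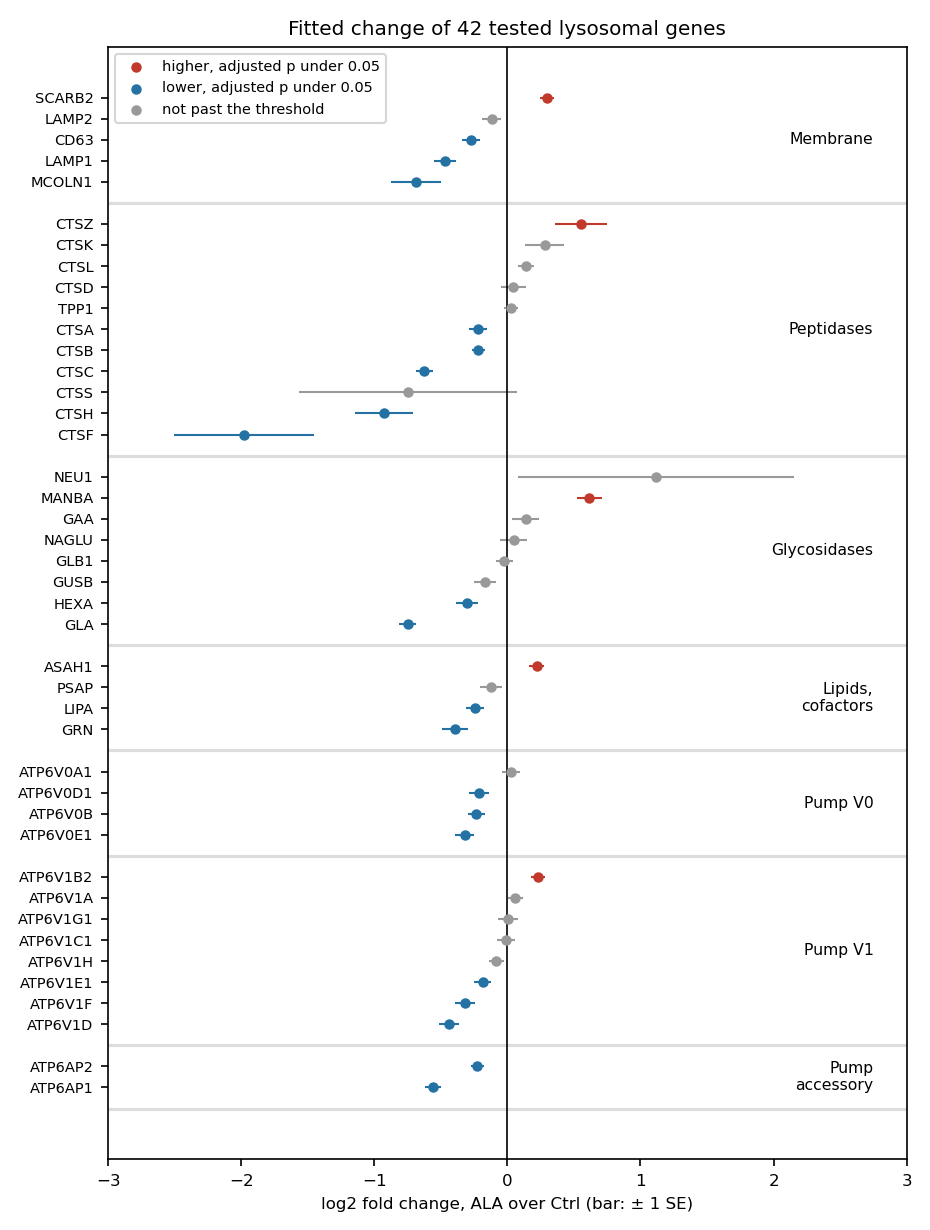
Points give the fitted log2 fold change, ALA over Ctrl, of each of 42 tested genes and bars ± 1 SE, grouped by role, with red for genes higher and blue for genes lower at an adjusted p under 0.05 and grey for the rest. Most points lie between -0.75 and 0.61, with 20 blue and 5 red, and CTSF, CTSS and NEU1 have the widest bars.

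The proton pump fell in part. Of its 15 listed genes 14 were tested, of which 8 fell, 1 rose and 5 did not pass. Both accessory subunits fell. ATP6AP1 (chromosome X, 154428632 to 154436516), or Ac45, which helps to assemble the V0 sector, had 292, 263 and 282 CPM in ALA and 418, 419 and 397 CPM in Ctrl libraries. Its 1.47-fold fall (log2 fold change -0.56 ± 0.06, adjusted p = 5.17e-05) was the largest of the 14 tested genes of the listed pump. ATP6AP2, the (pro)renin receptor, had 365, 370 and 391.9 CPM in ALA and 436, 440 and 443 CPM in Ctrl libraries (1.17-fold lower, adjusted p = 0.00485). The lowest Ctrl library of each was above the highest ALA library.

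In the V0 sector 3 of 4 tested subunits fell. ATP6V0E1, a small subunit of the sector, had 195, 192 and 193 CPM in ALA and 225, 269 and 230 CPM in Ctrl libraries (1.25-fold lower, adjusted p = 0.00494). ATP6V0B, a proteolipid of the rotor ring, had 173, 171 and 159 CPM in ALA and 202, 205 and 184 CPM in Ctrl libraries (1.18-fold lower, adjusted p = 0.0133, and 0.0838 without ALA replicate 3). ATP6V0D1, which couples the ring to the V1 stalk, had 102, 99.1 and 94.9 CPM in ALA and 118, 122 and 103 CPM in Ctrl libraries. The ALA libraries of ATP6V0D1 all lay below the Ctrl libraries, the closest by about 1 CPM, and it was 1.16-fold lower (adjusted p = 0.0404). This call was lost in 7 of 16 other settings, among them the fits without ALA replicate 1 (0.0772), 2 (0.106) or 3 (0.166) and without Ctrl replicate 1 (0.116) or 2 (0.0746). ATP6V0A1, an isoform of the large subunit that lines the proton path, had 95.8, 88.6 and 92.3 CPM in ALA and 97.8, 86.3 and 87.7 CPM in Ctrl libraries and was not called (log2 fold change 0.03 ± 0.07). ATP6V0C, the main proteolipid of the ring, had no count in any of the 6 libraries, which allows up to 0.0532 CPM over the ALA and 0.0390 CPM over the Ctrl libraries by counting error alone. In GENCODE v29 it shares 0.721 of its exonic length with other annotated genes on the same strand, and the part of this in the zero was not tested.

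In the V1 sector 3 of 8 subunits fell and 1 rose. ATP6V1D, a subunit of the central stalk, had 99.1, 101 and 105 CPM in ALA and 126, 153 and 135 CPM in Ctrl libraries, 1.36-fold lower (log2 fold change -0.44 ± 0.08, adjusted p = 0.00122). ATP6V1F, which also belongs to that stalk, had 71.6, 72.7 and 65.8 CPM in ALA and 84.7, 95.0 and 82.6 CPM in Ctrl libraries, 1.25-fold lower (adjusted p = 0.00609). A gene on the other strand covers 0.237 of the exons of ATP6V1F. Both stalk genes were apart in all libraries. ATP6V1B2, the subunit that forms the ATP-splitting ring together with ATP6V1A, rose 1.17-fold, with 284, 305 and 284 CPM in ALA and 246, 245 and 252 CPM in Ctrl libraries (adjusted p = 0.00629, and 0.119 under the GC and length correction). ATP6V1E1, of the outer stalks, had 224, 236 and 226 CPM in ALA and 244, 281 and 256 CPM in Ctrl libraries (1.14-fold lower, adjusted p = 0.0341). ATP6V1E1 lost its call without ALA replicate 1 (0.128), 2 (0.0683) or 3 (0.129), without Ctrl replicate 2 (0.0561) or 3 (0.0688), in the 4 libraries of even counts (0.269) and under that correction (0.0802).

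The catalytic subunit ATP6V1A, at 229 ± 8.03 CPM in ALA and 219 ± 7.25 CPM in Ctrl, was not called (log2 fold change 0.06 ± 0.06). ATP6V1C1 (145 ± 6.52 CPM in ALA, 146 ± 9.09 CPM in Ctrl) and ATP6V1G1 (155 ± 5.93 CPM in ALA, 154 ± 14.1 CPM in Ctrl), further subunits of the sector, had log2 fold changes of -0.01 ± 0.07 and 0.01 ± 0.07. ATP6V1H, a regulatory subunit, had 126 ± 3.24 CPM in ALA and 133 ± 2.16 CPM in Ctrl, without overlap but not called (adjusted p = 0.241). Within the sector ATP6V1D, ATP6V1F and ATP6V1E1 thus fell and ATP6V1B2 rose, while ATP6V1A, ATP6V1C1, ATP6V1G1 and ATP6V1H were not called. The calls of ATP6V1E1 and ATP6V1B2 did not hold in every setting. A difference between parts of the sector was not tested.

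Levels were also divided by the length of annotated exon, merged over all transcripts of a gene. This length can exceed that of the transcripts present in these cells, which were not determined, so the order of genes depends in part on the annotation. CD63 was the highest, with 201 CPM per kb in ALA and 242 CPM per kb in Ctrl cells. GRN followed with 128 CPM per kb in ALA and 169 CPM per kb in Ctrl cells, then ATP6V0E1 with 119 CPM per kb in ALA and 149 CPM per kb in Ctrl, and ATP6V1G1 with 118 CPM per kb in both. Among cathepsins CTSL (73.4 CPM per kb in ALA, 66.7 CPM per kb in Ctrl), CTSB (70.8 in ALA and 82.4 in Ctrl, both in CPM per kb) and CTSD (65.0 in ALA and 63.1 in Ctrl, both in CPM per kb) were close to each other. CTSL thus stood above CTSB in ALA cells and below it in Ctrl cells on this measure. That order rests on exon lengths of 2366 bases for CTSL and 7428 bases for CTSB and was not tested. Apart from ATP6V0C the lowest were CTSS, CTSF, NEU1 and CTSH, each at or below 1.06 CPM per kb in both groups.

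Genes fell both with and without the CLEAR core in their promoter windows. Of 11 lysosomal genes with a CACGTG in a promoter window 7 fell and 0 rose, and of 17 tested without it 10 fell and 2 rose. Those with the core that fell were LAMP1, MCOLN1, CTSA, CTSF, ATP6V0B, ATP6V0D1 and CD63 (the last in 1 of its alternative windows), and those not called were GAA, CTSD, NEU1 and ATP6V1G1. Among all tested genes with a promoter entry, 23.6% of those with the core fell and 26.2% rose, against 23.2% and 24.2% of those without it. A match of letters is no evidence of binding, and no match says only that these letters are not in that window.

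**Figure D4:**
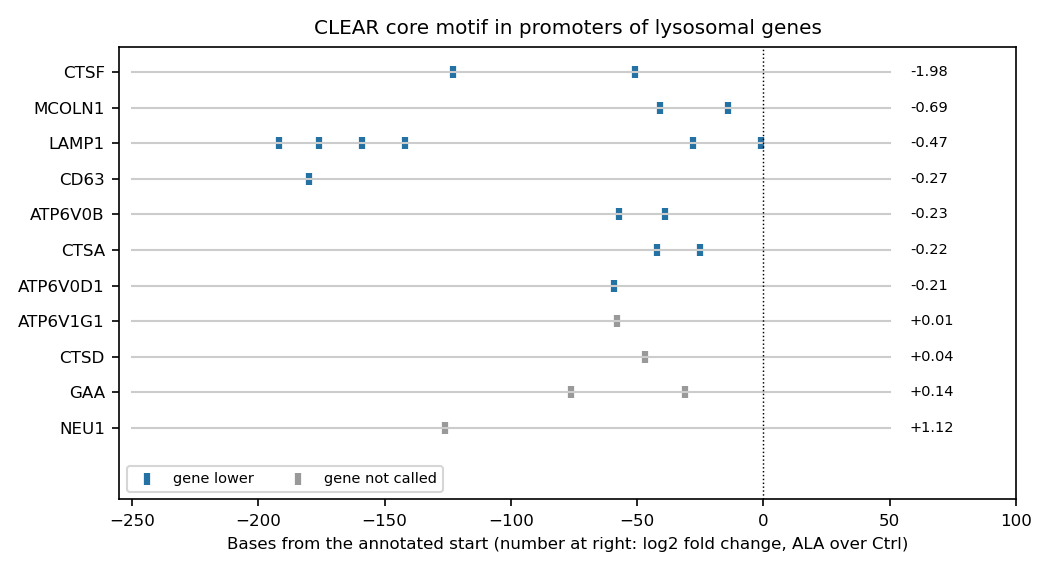
Horizontal lines are promoter windows from 250 bases before to 50 bases after the annotated start (dotted line) of the 11 lysosomal genes with the CLEAR core, ticks mark its copies, and the numbers give the log2 fold change, ALA over Ctrl. Most copies lie within the last 100 bases before the start, LAMP1 has 6, and genes lower with ALA (blue) and genes not called (grey) both hold copies.

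Other genes of the pathway were grouped in lists by known function. Most lists held more falls than rises, where 23.3% of all tested genes fell and 24.2% rose. Falls in the membrane, sorting and MiT/TFE lists lay nearer to that share than in the other lists. Of 39 tested further hydrolases and activators 17 fell and 6 rose, and their summed level was 6051 ± 77.9 CPM in ALA and 7906 ± 152 CPM in Ctrl libraries. GALC, the galactosylceramidase of myelin lipids, fell 1.79-fold (529 ± 25.3 CPM in ALA, 946 ± 17.6 CPM in Ctrl, adjusted p = 2.23e-06), and PRCP, a carboxypeptidase of angiotensin and bradykinin peptides, fell 1.39-fold to 2602 ± 20.7 CPM in ALA, against 3626 ± 122 CPM in Ctrl. SIAE, which removes acetyl groups from sialic acid, rose 1.33-fold, with genes on the other strand over 0.366 of its exons, and HPSE, which cuts heparan sulfate, rose 1.57-fold (28.0 ± 2.41 CPM in ALA, 17.8 ± 2.25 CPM in Ctrl). Of 25 tested further membrane proteins 7 fell and 4 rose. LAPTM4B, a membrane protein of late endosomes and lysosomes, fell 1.32-fold (514 ± 15.7 CPM in ALA, 676 ± 42.9 CPM in Ctrl, adjusted p = 0.000455). LAMP3, a relative of LAMP1 found in few cell types, rose 8.67-fold (8.85 ± 2.78 CPM in ALA, 1.02 ± 0.129 CPM in Ctrl, adjusted p = 2.69e-05), against the direction of LAMP1, and SIDT2, a lysosomal nucleic acid channel, rose 1.79-fold.

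Of 14 tested alternative pump subunits and assembly factors 6 fell and 3 rose. ATP6V0A2 fell 1.38-fold and TCIRG1, which encodes the a3 isoform, 1.44-fold (27.8 ± 0.685 CPM in ALA, 40.0 ± 4.84 CPM in Ctrl), both isoforms of the large V0 subunit whose form ATP6V0A1 was not called. ATP6V1E2, the less common isoform of ATP6V1E1, rose 2.09-fold (12.2 ± 1.60 CPM in ALA, 5.82 ± 0.410 CPM in Ctrl, adjusted p = 0.000459). ROGDI, a partner in pump assembly with 0.383 of its exons shared with another gene on its strand, fell 1.54-fold. DMXL1, of the same assembly complex, rose 1.34-fold (adjusted p = 0.00180, and 0.0723 under the GC and length correction).

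Genes that tag and sort hydrolases did not share a direction, with 5 of 16 lower and 4 higher and a median log2 fold change of 0.00. GNPTG, a subunit of the enzyme that starts the mannose 6-phosphate tag, fell 1.63-fold, with genes on the other strand over 0.309 of its exons, and SORT1, a sorting receptor, fell 1.32-fold (246 ± 6.06 CPM in ALA, 324 ± 8.72 CPM in Ctrl). IGF2R, the large mannose 6-phosphate receptor, rose 1.24-fold (232 ± 13.7 CPM in ALA, 186 ± 20 CPM in Ctrl, adjusted p = 0.0103) and CLTC, the clathrin heavy chain, 1.12-fold (adjusted p = 0.0119, and 0.3915 under that correction). Of 5 tested cystatins and other cathepsin inhibitors 3 fell and 1 rose. SERPINB6, a cytosolic inhibitor of serine proteases and cathepsin G, fell 2.04-fold (285 ± 17.2 CPM in ALA, 580 ± 26.9 CPM in Ctrl, adjusted p = 1.93e-06). CSTB, cystatin B, fell 1.27-fold (adjusted p = 0.0179) but lost its call without ALA replicate 1 (0.0612), 2 (0.0625) or 3 (0.0629), and likewise within the 4 libraries of even counts (log2 fold change -0.17 against -0.35, adjusted p = 0.118).

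MiT/TFE factors and the nutrient-sensing complexes that hold them in the cytosol gave 3 falls and 4 rises among 17. TFEB itself was scarce, at 3.05 ± 0.544 CPM in ALA and 4.99 ± 0.286 CPM in Ctrl libraries (1.64-fold lower, adjusted p = 0.0217), and was not called in 5 of 16 other settings (adjusted p up to 0.0823), namely the 4 libraries of even counts and the fits leaving out ALA replicate 1, ALA replicate 3, Ctrl replicate 1 or Ctrl replicate 3. TFE3, the more abundant factor here, had 61.4 ± 3.58 CPM in ALA and 54.9 ± 2.8 CPM in Ctrl (adjusted p = 0.0921), and was called higher under the GC and length correction (log2 fold change 0.26 against 0.16, adjusted p = 0.00415). MITF had 6.5 ± 0.771 CPM in ALA and 6.78 ± 2.13 CPM in Ctrl (adjusted p = 0.850), and TFEC rose 3.92-fold to 3.89 ± 0.321 CPM in ALA, against 0.988 ± 0.281 CPM in Ctrl. Of the Rag GTPases, which bind these factors at the lysosome, RRAGD rose 1.66-fold (54.3 ± 3.94 CPM in ALA, 32.8 ± 0.563 CPM in Ctrl, adjusted p = 6.11e-05) while RRAGA fell 1.47-fold (126 ± 1.60 CPM in ALA, 186 ± 16.9 CPM in Ctrl, adjusted p = 0.000194). ZKSCAN3, a repressor of lysosomal and autophagy genes, rose 1.62-fold (18.9 ± 1.93 CPM in ALA, 11.7 ± 0.612 CPM in Ctrl, adjusted p = 0.00108). LAMTOR4, of the Ragulator complex that anchors the Rags, fell 1.21-fold (adjusted p = 0.0267) and lost its call without ALA replicate 2 (0.0827) or 3 (0.119), without Ctrl replicate 2 (0.0569), in the 4 libraries of even counts (0.176) and under the GC and length correction (0.286).

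**Figure D5:**
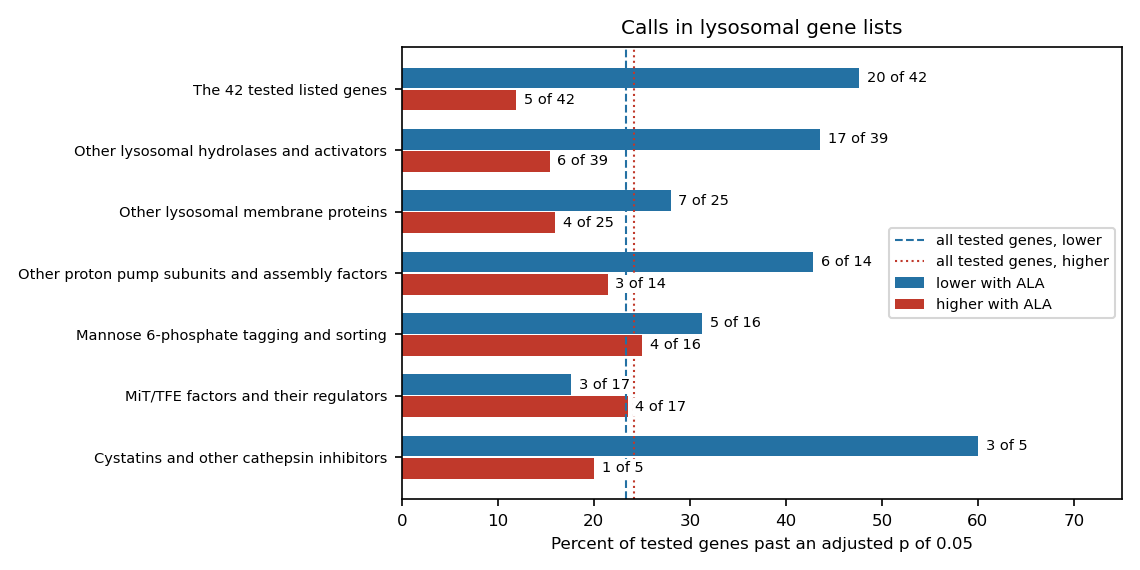
Bars give the percent of tested genes of each list that were lower (blue, upper) or higher (red, lower bar) with ALA at an adjusted p under 0.05, with the counts beside them. Dashed and dotted lines mark the 23.3% lower and 24.2% higher of all tested genes, and the blue bar of the 42 listed genes and those of the further hydrolases, pump subunits and cathepsin inhibitors reach well past the blue line.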

How the data were processed

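The authors deposited raw counts per gene symbol for 3 ALA and 3 Ctrl libraries. HISAT2, featureCounts and DESeq2 on hg38 are named, per the submitters' processing notes, while versions, annotation, strand setting and treatment of ambiguous reads are not given in the sources used here. From the deposited counts, genes were kept by filterByExpr (13780 of 29436), scaled by TMM and tested with the edgeR 4.0.16 quasi-likelihood F test in R 4.3.3, group being the only term. Adjusted p under 0.05 (Benjamini-Hochberg over all tested genes) was the threshold for rose and fell. CPM were computed with TMM-scaled library sizes (mean ± SD, n = 3), and the SE of a log2 fold change was taken as its size divided by the root of F. Amplified cDNA without molecular barcodes makes counting limits too narrow, so they cover counting error only. For the upper limit at a count of 0, 3 counts over a group were taken, with even counts halved. Pairs of libraries within a group differed by more than sampling noise (chi-square per degree of freedom 6.13 to 30.5), so none was counted as a repeat.

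Members and lists were chosen with earlier results of these data known. In each role, every gene (roles of up to 5) or the 4 called genes with the lowest p were given for each library. From each other list, up to 2 called genes per direction with the lowest p and a mean of at least 5 CPM were named. A gene that this rule picks is not reported here. TFEB, TFE3, TFEC, MITF and TCIRG1 were chosen after their values were seen. The symbols TMEM55A and TMEM55B of the membrane list were not analysed here. Positions and exon overlaps came from GENCODE v29 (GRCh38), with length and GC content for 99.02% of symbols, and promoters from RefSeq (GRCh38.p14). The 16 other settings were RLE and upper-quartile scaling, no filter, at least 1 CPM in a group, DESeq2 1.42.0, limma 3.58.1 voom with quality weights, the replicate block, each library left out, even counts halved, the 4 libraries of even counts alone, and GC content and length trends removed by library.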

Additional observations from a re-analysis of the deposited data

How the results depend on the processing

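The counts of lysosomal genes kept within 1.5 times of 20 lower and 5 higher in all 16 settings (14 to 20 lower, 4 to 7 higher), and 11 genes (LAMP1, SCARB2, CTSB, CTSC, GLA, MANBA, ATP6V0E1, ATP6V1D, ATP6V1F, ATP6AP1 and ATP6AP2) were called in the same direction in each. Leaving out 1 library gave 14 to 20 lower, 4 to 5 higher and a median log2 fold change of -0.17 to -0.15. In those fits 16.9% to 24.2% of all tested genes were lower and 18.9% to 25.1% higher. Over all settings the shares reached 26.9% lower and 27.4% higher, both with limma voom. Under the correction for GC content and length the median of the lysosomal genes was -0.12 against -0.18. Of these genes 16 were lower (15 of the 20) and 7 higher (3 of the 5), against 24.6% lower and 23.6% higher among all tested genes. By construction that setting moves genes of unlike GC content and length apart, and the cause of each shift was not tested. In the 4 libraries of even counts, with Ctrl replicate 1 as sole control assumed to vary like the others, 18 were lower and 5 higher. Without Ctrl replicate 1, where even counts and treatment cannot be told apart, 17 were lower and 5 higher. No called gene changed sign in any setting, and 612 of 669 values of single genes kept their side of the threshold. A change of sign in a gene uncalled in both fits counted as kept. The replicate block gave 20 lower and 4 higher (CTSZ lost, adjusted p = 0.0622), and 3203 lower and 3354 higher among all genes against 3205 and 3329. Libraries of the same number correlated in their deviations from the group mean at 0.051, 0.054 and 0.074, each the highest for its library. These lay under the 0.1 taken to show pairing, but some marker sums followed the number. Replicate 2 had the lowest mesenchymal sum of each group (1499.5 CPM in ALA, 1965.5 CPM in Ctrl). It also had the highest endoderm and hepatic sum of each (218 CPM in ALA, 38.6 CPM in Ctrl). It was not the extreme of both groups in the endothelial, epithelial or myeloid sums. What the number marks is not given by the labels and was not tested. CTSF, CTSH, CTSS, CTSZ, MCOLN1, NEU1, TFEB, TFEC and MITF lay below 10 CPM in every library, where depth leaves few counts per gene.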
